A study of Rattus norvegicus with 18 samples.

Results

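The genes described here are the integrin and laminin subunits, chosen by name as every gene whose symbol is an integrin alpha chain (Itga), an integrin beta chain (Itgb) or a laminin alpha, beta or gamma chain (Lama, Lamb, Lamc). They number 37 of the 19880 genes measured, with 18 integrin alpha, 8 integrin beta, 5 laminin alpha, 3 laminin beta and 3 laminin gamma chains. Their mRNA was measured by sequencing in neonatal rat ventricular cardiomyocytes, heart muscle cells taken from Sprague-Dawley rats on postnatal day 2. All cultures, controls included, had received phenylephrine (PE) at 20 µM for 24 h, an agonist of alpha-adrenergic receptors that makes cardiomyocytes grow. The 3 virus groups were infected with an adenovirus named ad-sORF6, ad-sORF7 or ad-sORF8, each after a short open reading frame (sORF), and each had a control virus group of its own, so that the 18 libraries form 6 groups of 3. The labels give neither the sequence of an sORF nor a statement that replicates were isolated separately, so p-values measure the spread among replicate libraries and part of it may be technical. The cells grew on gelatin after a preplating step that removes other adherent cells.

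Integrins are membrane receptors made of 1 alpha and 1 beta chain that tie the actin cytoskeleton to proteins outside the cell. Laminins are secreted trimers of 1 alpha, 1 beta and 1 gamma chain that build the basement membrane, the sheet that surrounds every cardiomyocyte. In heart and skeletal muscle the integrin of alpha7 and beta1 is a main laminin receptor, and laminins with the alpha2 chain are the main ones of the muscle basement membrane. Integrins with the beta2 chain are made by white blood cells.

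Depth was 15697177 to 17658137 counts per library, and 14872 genes, among them 36 of the 37 subunits, passed the filter on low counts. Itgb7, whose chain pairs with alpha4 or alphaE on lymphocytes, did not pass, with 1 to 15 counts per library. All 8 cardiomyocyte markers were found, at a summed 32030 to 55400 CPM per library (counts scaled by TMM to a common library size). Fibroblast markers summed to 7485 to 9186 CPM, macrophage and leukocyte markers to 91.4 to 140 CPM and endothelial markers to 50.6 to 67.7 CPM, so the cultures were not cardiomyocytes alone. In bulk RNA, fewer cells of a type and less RNA per cell cannot be told apart. The gene-wise standard deviation of the log2 difference between libraries of a group was 0.234 to 0.303. Replicate 2 of the sORF6 control and replicate 1 of the sORF7 control had stood apart in earlier analyses of these data, and counts that change without them are given beside the results. By the standard deviation above, this sORF6 control was at 0.293 and 0.303 from its fellows, which were 0.293 from each other. For this sORF7 control the values were 0.301 and 0.299, against 0.274, so this measure alone hardly sets them apart.

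Levels between genes were compared as FPKM, a scale that takes both library size and transcript length into account. The beta1 chain gene Itgb1, partner of most alpha chains, was at the top, with a median of 606 FPKM over the 18 libraries (555 to 686). It made up 83.7% ± 0.680 of the summed integrin beta FPKM (SD, 18 libraries). Itgb5, the beta chain that pairs with alphav to bind vitronectin, followed at 103 FPKM (87.7 to 121), and the ranges of the pair do not overlap. Itgb2, Itgb3, the beta chain of platelets that also pairs with alphav, and Itgb8, an alphav partner that activates latent TGF-beta, had medians of 5.68, 5.49 and 3.23 FPKM. Itgb4, Itgb6 and Itgb7, known from epithelia and lymphocytes, were under 1 FPKM in every library. The ranges of Itgb2 (3.24 to 7.77) and Itgb3 (4.77 to 6.90) overlap, so these neighbours were not ordered.

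Among alpha chains, Itga5, the fibronectin receptor chain, had a median of 90.8 FPKM (73.5 to 95.3) and Itga7, the muscle laminin receptor chain, 80.7 FPKM (69.5 to 93.8). The pair overlaps, and the 24 other genes inside the Itga5 interval make its level uncertain, since the sources used here do not state whether reads were counted by strand. Itgav, the vitronectin receptor chain, followed at 53.7 FPKM. Next, at 35.8 to 39.6 FPKM with overlapping ranges, came the laminin receptor chains Itga3 and Itga6 and Itga9, a receptor chain for tenascin-C and osteopontin. Of the collagen receptor chains, Itga1 reached 12.8 FPKM and Itga11 5.09 FPKM, while Itga2 and Itga10 were at 0.870 and 0.220 FPKM. Itga1, Itga10 and Itga11 overlap Pelo, Rbm8a and Fem1b, at means of 41.6, 34.5 and 19.9 FPKM, so their levels are uncertain too. Of the chains known from white blood cells, Itgal, Itgam, Itgae, Itgax and Itgad had medians of 3.20, 1.84, 0.950, 0.605 and 0.185 FPKM.

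Laminin mRNA was dominated by Lamc1, the gamma1 chain of most laminins, at 237 FPKM (215 to 258). Lamb2 at 93.1 FPKM and Lamb1 at 77.1 FPKM are the beta chains of the main muscle laminins. The ratio of Lamb1 to Lamb2 had a median of 0.795, but ranged from 0.745 to 1.33 between libraries. Lama4, the alpha chain of vascular and fat cell laminins, was at 68.5 FPKM and Lama2, the muscle alpha chain, at 47.4 FPKM. Lama4 stood above Lama2 in every library, by 1.22 to 2.38 times, and Lama5 followed at 28.3 FPKM.

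The alpha3 and beta3 chains, known as partners in a laminin of the skin, were expressed unequally. Lamb3 had a median of 41.3 FPKM (25.8 to 56.4), while its alpha partner Lama3 was at 0.315 FPKM (0.200 to 0.420). Within a library, Lamb3 stood 73.2 to 240 times above Lama3. Lama3 had 41 to 85 counts per library, so it was measured but low. Epicardial and mesothelial markers, an epithelial source in the heart, summed to 61.1 to 88.8 CPM, and their part in these levels was not tested. Over all 37 subunits, 10 had a median of at least 50 FPKM, 7 lay between 10 and 50, 8 between 1 and 10, and 12 under 1.

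**Figure D1:**
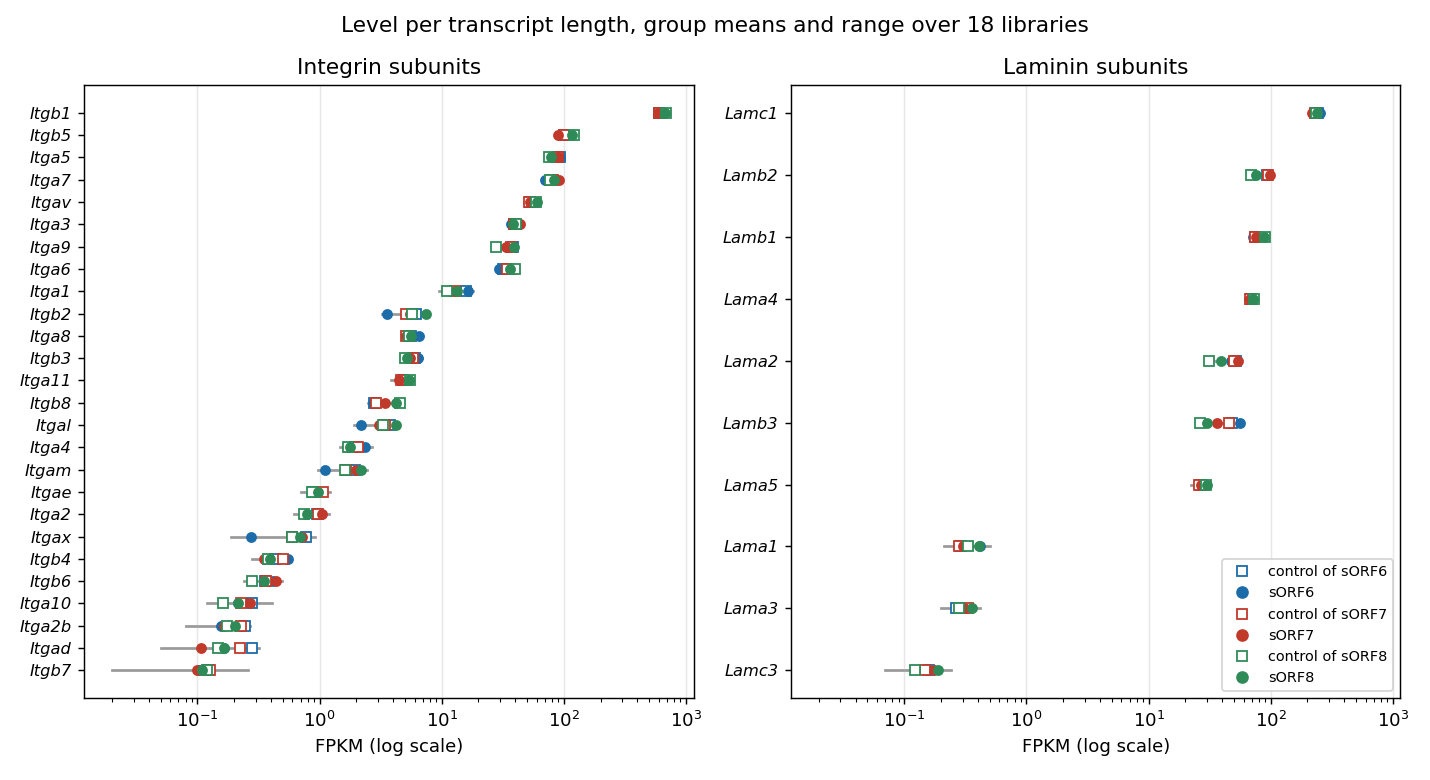
Level of each integrin subunit (left) and laminin subunit (right) in FPKM on a log axis. Open squares are means of control virus groups, filled circles means of sORF groups (n = 3 each), and grey lines run from the lowest to the highest of 18 libraries. Itgb1 at 606 FPKM and Lamc1 at 237 FPKM lead their panels, while Lama3 at 0.315 FPKM lies far to the left of Lamb3 at 41.3 FPKM. Of the 37 subunits, 1 subunit is not shown.

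The first comparison asked which subunits differed between sORF6 and its control virus. The 4 subunits that fell were the leukocyte chains Itgb2, Itgal, Itgam and Itgax, and the 1 that rose was Lamb3. These 5 of 36 passed the edgeR quasi-likelihood test at a Benjamini-Hochberg adjusted p under 0.05, against 3.86% of all genes tested (0.975% higher and 2.88% lower). The median log2 fold change was -0.013 over the subunits and 0.00089 over all genes. The groups did not overlap for 12 subunits, 4 above and 8 below the controls, against 20.6% of all genes.

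Itgb2, the beta chain common to leukocyte integrins (gene 309684, Rnor_6.0 chromosome 20, 11777773 to 11815748, minus strand), was at 12.5, 10.5 and 11.7 CPM with sORF6 and at 20.5, 19.4 and 20.0 CPM in the controls. Every sORF6 library lay below every control, with a log2 fold change of -0.79 ± 0.10 (SE, adjusted p = 3.2e-05). Itgal, the alpha chain of the lymphocyte and monocyte receptor for ICAM-1 (gene 308995, chromosome 1, 198744053 to 198781745, plus strand), was at 10.9, 10.2 and 8.83 CPM against 20.0, 14.6 and 16.5 CPM. The groups did not overlap, and the log2 fold change was -0.77 ± 0.13 (adjusted p = 0.00079).

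Itgam and Itgax, alpha chains of the complement receptors of myeloid cells, are neighbours on chromosome 1 (gene 25021, 199495312 to 199545738, and gene 499271, 199555560 to 199576948, both plus strand). Itgam was at 4.13, 3.62 and 4.56 CPM with sORF6 and at 7.19, 6.78 and 7.98 CPM in the controls, a log2 fold change of -0.83 ± 0.17 (adjusted p = 0.0071). Itgax was at 1.69, 1.46 and 0.92 CPM against 4.26, 3.07 and 4.10 CPM, a log2 fold change of -1.49 ± 0.27 (adjusted p = 0.0022). Neither gene's groups overlapped. Itgax rests on 16 to 74 counts per library, and Itgam, Itgax and Itgad are close paralogs between which reads could be divided, so their separate values are uncertain. Itgad, another alpha chain of this group, had 3 to 20 counts per library and a log2 fold change of -0.75 ± 0.46 that did not pass (adjusted p = 0.47). Itgae, the chain by which lymphocytes bind E-cadherin, had a log2 fold change of -0.06 ± 0.19 (adjusted p = 0.94).

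Other genes of white blood cells were read beside these. Fermt3, which encodes the blood cell kindlin that activates integrins, fell from 7.19, 6.20 and 5.64 CPM to 4.36, 4.03 and 4.33 CPM (log2 -0.58 ± 0.16, adjusted p = 0.048). Adgre1, a macrophage surface receptor, fell from 75.3, 80.4 and 68.4 CPM to 51.5, 49.99 and 44.8 CPM (log2 -0.61 ± 0.10, adjusted p = 0.00051). It was the 1 of 7 tested macrophage and leukocyte markers that changed, and the median of the 7 was -0.04. The summed level of the list was 91.4 to 99.7 CPM with sORF6 and 112 to 129 CPM in the controls. That gap lay in Adgre1 alone: without it the sums overlapped, at 46.5 to 48.1 CPM with sORF6 and 43.5 to 49.8 CPM in the controls. The other 6 tested markers went both ways and none of them passed. Ptprc, the common leukocyte phosphatase, was at 7.27, 6.72 and 4.79 CPM with sORF6 and at 9.09, 8.17 and 7.29 CPM in the controls (log2 -0.39 ± 0.14, adjusted p = 0.16). Cd14, a monocyte and macrophage receptor for bacterial lipopolysaccharide, was at 4.42, 5.96 and 5.71 CPM against 6.27, 7.82 and 8.66 CPM (-0.50 ± 0.15, adjusted p = 0.084). Both lay below their controls with no overlap. Csf1r, the macrophage growth factor receptor, was at 16.2, 13.7 and 14.4 CPM against 12.2, 12.7 and 11.3 CPM (0.29 ± 0.13, adjusted p = 0.29). The macrophage complement gene C1qa was at 0.58, 1.11 and 0.87 CPM against 0.35, 0.058 and 0.40 CPM (1.64 ± 0.60, adjusted p = 0.16). Both lay above their controls with no overlap. The groups of Cd68, a lysosomal macrophage protein, and Laptm5, a lysosomal protein of blood cells, overlapped (-0.04 ± 0.14 and 0.11 ± 0.13). C1qb, another complement gene, was not tested, at 0.233, 0.175 and 0.173 CPM with sORF6 and 0.115, 0.058 and 0.057 CPM in the controls. The B cell marker Ms4a1 was under 1 CPM in every library. The part of white blood cells in the fall of the 4 chains was not tested. Markers of other cells moved with sORF6 as well. Fibroblast markers summed to 8674 to 9186 CPM against 7719 to 8510 CPM, with Col3a1 called higher and Dcn lower. Schwann cell markers, 0 called, were higher too, at up to 22.9 against up to 19.4 CPM. Neither sum overlapped between the groups. The cardiomyocyte and smooth muscle and pericyte sums overlapped, with Myh7 called higher and Myh6 and Acta2 lower. The part of these shifts in the 5 calls of sORF6 was not tested.

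**Figure D2:**
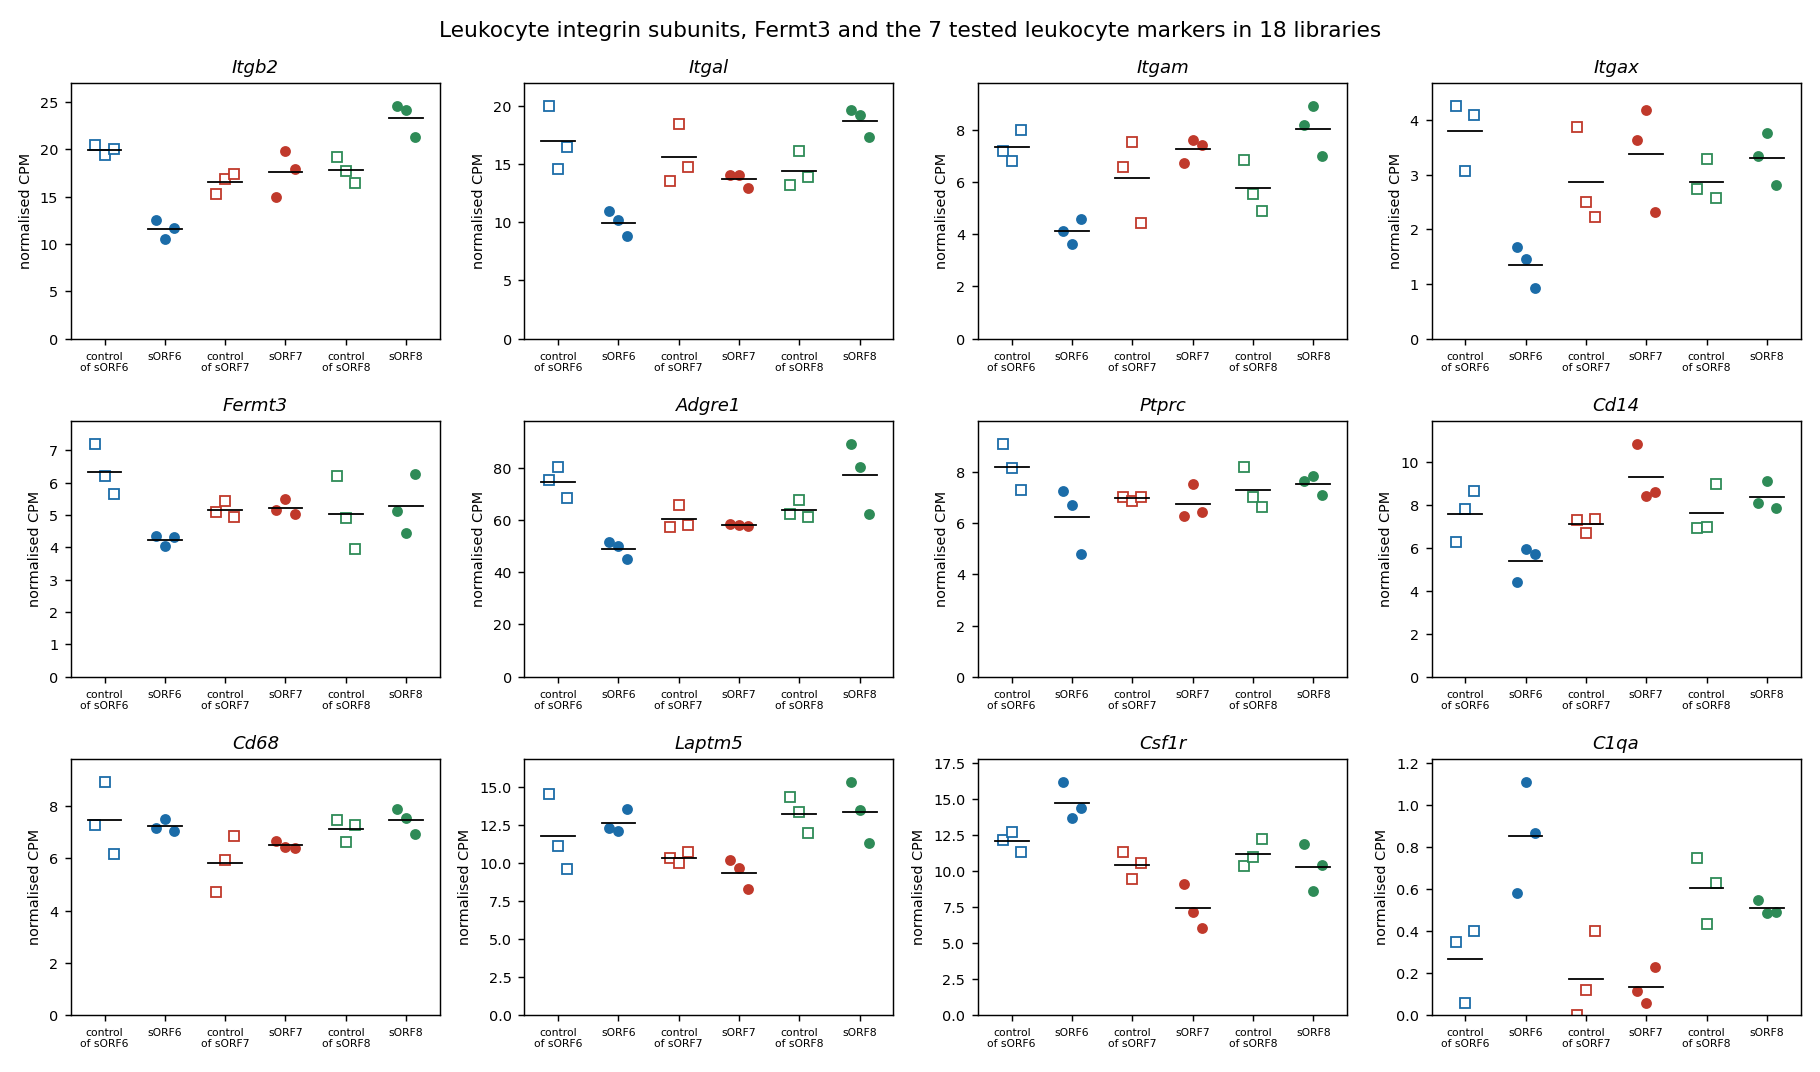
Normalised CPM of 4 leukocyte integrin chains, Fermt3 and the 7 tested leukocyte markers (Adgre1 to C1qa) in each of 18 libraries, with controls as open squares, sORF groups as filled circles and group means as black lines. The 3 sORF6 libraries lie below their 3 controls for the 4 chains, Fermt3, Adgre1, Ptprc and Cd14, as with Itgb2 at 10.5 to 12.5 against 19.4 to 20.5 CPM, above them for Csf1r and C1qa, and among them for Cd68 and Laptm5.

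Lamb3, the beta3 chain (gene 305078, chromosome 13, 112031614 to 112073187, plus strand, Rnor_6.0), was at 235, 230 and 232 CPM with sORF6 and at 212, 192 and 196 CPM in the controls. The 3 sORF6 libraries were all higher, with a log2 fold change of 0.21 ± 0.04 (adjusted p = 0.0012). Its partner Lama3 did not pass (0.31 ± 0.21, adjusted p = 0.53).

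Promoter sequences were read for the subunits that moved, to show what lies before their starts. RefSeq promoters (build GRCr8) were matched for 28 of the 37 subunits, and those of Lamb3, Itgam and Itgax are shown because they belong to the subunits that passed the sORF6 test. Itgb2 and Itgal were not among those matched. Each line gives the 250 bases before the start, 5′ to 3′ on the plus strand, and capitals mark matches to the motifs named after them.
Lamb3, chr13:107362303-107362552: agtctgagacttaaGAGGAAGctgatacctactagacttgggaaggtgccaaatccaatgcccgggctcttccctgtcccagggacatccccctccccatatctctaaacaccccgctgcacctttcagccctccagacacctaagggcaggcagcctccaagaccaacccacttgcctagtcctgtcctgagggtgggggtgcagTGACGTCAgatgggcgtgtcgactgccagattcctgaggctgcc
Itgam, chr1:192089342-192089591: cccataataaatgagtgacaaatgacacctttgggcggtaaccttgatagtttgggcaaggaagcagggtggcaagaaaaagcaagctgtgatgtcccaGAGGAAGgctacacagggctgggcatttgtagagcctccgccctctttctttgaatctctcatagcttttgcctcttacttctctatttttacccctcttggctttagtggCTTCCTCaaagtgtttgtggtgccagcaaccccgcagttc
Itgax, chr1:192149799-192150048: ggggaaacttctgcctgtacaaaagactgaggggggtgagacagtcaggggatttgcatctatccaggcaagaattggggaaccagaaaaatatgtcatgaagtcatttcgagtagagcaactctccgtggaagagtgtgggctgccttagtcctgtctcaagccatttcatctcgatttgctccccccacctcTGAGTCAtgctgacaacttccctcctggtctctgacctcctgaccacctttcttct

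In all, 5 short motifs were searched on both strands of all 33469 promoters, and no match in the 3 promoters shown overlaps another. The cAMP response element TGACGTCA, the site of CREB and related factors, stood 44 to 37 bases before the Lamb3 start, the 1 match among 28 subunit promoters, and 1.59% of all promoters hold it. GAGGAAG, a core of the myeloid factor PU.1, stood in the Itgam promoter 151 to 145 bases and, in reverse as CTTCCTC, 40 to 34 bases before the start. Lamb3 held it at 236 to 230 bases, as did 7 of 28 subunit promoters and 10.2% of all. The AP-1 motif TGANTCA stood 56 to 50 bases before the Itgax start, and 2 of 28 subunit promoters and 6.34% of all hold it. The interferon response motif, GAAA followed by 2 bases of any kind and GAAA, stood in 2 of 28 (3.41% of all) and TATAAA in 2 of 28 (12.9% of all), none of them in the 3 promoters shown. The motifs were chosen with the promoters in view, and a match describes these letters only.

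The calls of sORF6 rose from 5 to 10 subunits with a correction for transcript length, and to 9 without replicate 2 of the control. Over all genes, 574 of 14872 were called in the main fit. The correction called 683 of 14872, and the fit without that control 527 of 15084. The log2 fold change of all genes rose with transcript length here (Spearman rho 0.228 across 12511 genes, which are not independent), and the subunits are long, with a median of 4946 against 2598 nt. The 5 chains added by the correction, all lower, were Itga6, Itga7, Itga9, Lama2 and Lamb1, while the first 5 kept their calls in every setting tried. In the uncorrected fit Itga7 was at 284, 283 and 294 CPM against 328, 297 and 322 CPM, a log2 fold change of -0.14 ± 0.04 that did not pass (adjusted p = 0.071).

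The comparison of sORF7 with its control asked the same of the next frame. With sORF7, 6 of 36 subunits passed, 3 higher and 3 lower, against 7.77% of all genes (4.12% higher and 3.66% lower). The 3 that rose were the 3 chains listed as laminin-binding, Itga3, Itga6 and Itga7, and those that fell were Lamb3, Itgb5 and Itga9. The median log2 fold change was 0.0013 over the subunits and -0.0024 over all genes. The groups did not overlap for 4 subunits above and 4 below, against 23.1% of all genes.

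Itga7 (gene 81008, chromosome 7, 3355079 to 3383886, plus strand) was at 352, 374 and 356 CPM with sORF7 and at 315, 333 and 331 CPM in the controls. Its log2 fold change was 0.14 ± 0.04 (adjusted p = 0.034). Itga3, whose chain binds laminins of epithelia and is made in the heart too, was at 194, 208 and 188 CPM against 180, 178 and 175 CPM (0.14 ± 0.04, adjusted p = 0.026). Itga6, a laminin receptor chain of epithelia and early heart, was at 224, 230 and 244 CPM against 218, 205 and 200 CPM (0.16 ± 0.05, adjusted p = 0.044). In each of the 3 genes every sORF7 library lay above every control, by a small margin. All 3 calls depended on single libraries. That of Itga3 was lost without replicate 1 or 2 of sORF7 or 2 or 3 of its control (adjusted p 0.060 to 0.156). The call of Itga7 was lost without any sORF7 replicate or without control replicate 1 or 3 (0.055 to 0.157), and that of Itga6 without any sORF7 replicate or without control replicate 2 or 3 (0.054 to 0.187). The Itga6 call was also lost with no filter on low counts (adjusted p = 0.053).

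Lamb3 fell with sORF7, at 147, 150 and 146 CPM against 187, 190 and 187 CPM in the controls. The gap between the groups was many times the spread within them, with a log2 fold change of -0.35 ± 0.04 (adjusted p = 1.4e-05). Itgb5 (gene 257645, chromosome 11, 70056500 to 70173048, minus strand) was at 331, 334 and 322 CPM against 365, 373 and 387 CPM, a log2 fold change of -0.19 ± 0.03 (adjusted p = 0.00085). Its partner Itgav had a log2 fold change of 0.00 ± 0.06 (adjusted p = 0.98). Itga9 was at 235, 242 and 231 CPM against 268, 271 and 252 CPM (-0.16 ± 0.04, adjusted p = 0.0196). That call was lost without replicate 1 or 3 of sORF7 or 1 or 2 of its control (adjusted p 0.066 to 0.089). Lamb3 and Itgb5 kept their calls in every setting tried, while the count of called subunits fell to 2 in a fit of the 6 libraries alone and without replicate 1 of sORF7, and to 3 without replicate 3 of sORF7 or of its control. Calls over all genes fell as well, from 1156 to 689, 682, 812 and 953 in the same order.

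None of the leukocyte chains passed the test with sORF7. Itgb2 was at 14.9, 19.8 and 17.96 CPM against 15.3, 16.9 and 17.4 CPM, and its groups overlapped (0.09 ± 0.10, adjusted p = 0.69). Itgal was at 14.1, 14.1 and 13.0 CPM against 13.5, 18.5 and 14.7 CPM (-0.18 ± 0.12, adjusted p = 0.46). Itgam (0.23 ± 0.17) and Itgax (0.24 ± 0.25) did not pass either. The summed leukocyte markers were 93.9 to 102 CPM with sORF7 and 98.0 to 105 CPM in the controls, and 1 of 7 tested, Csf1r, fell (-0.49 ± 0.14, adjusted p = 0.035). Markers of other cells moved with sORF7 as well. Cardiomyocyte markers summed to 44841 to 45778 CPM against 48803 to 53548 CPM in the controls, with Myh7 and Myl2, a myosin heavy and a light chain, called lower. Fibroblast markers summed to 7485 to 7834 CPM against 7867 to 8770 CPM, with Col3a1, Postn and Pdgfra called lower, and epicardial and mesothelial markers to 61.1 to 63.7 CPM against 67.6 to 74.9 CPM. None of these 3 sums overlapped between the groups, and their part in the changes of the 6 subunits was not tested.

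**Figure D3:**
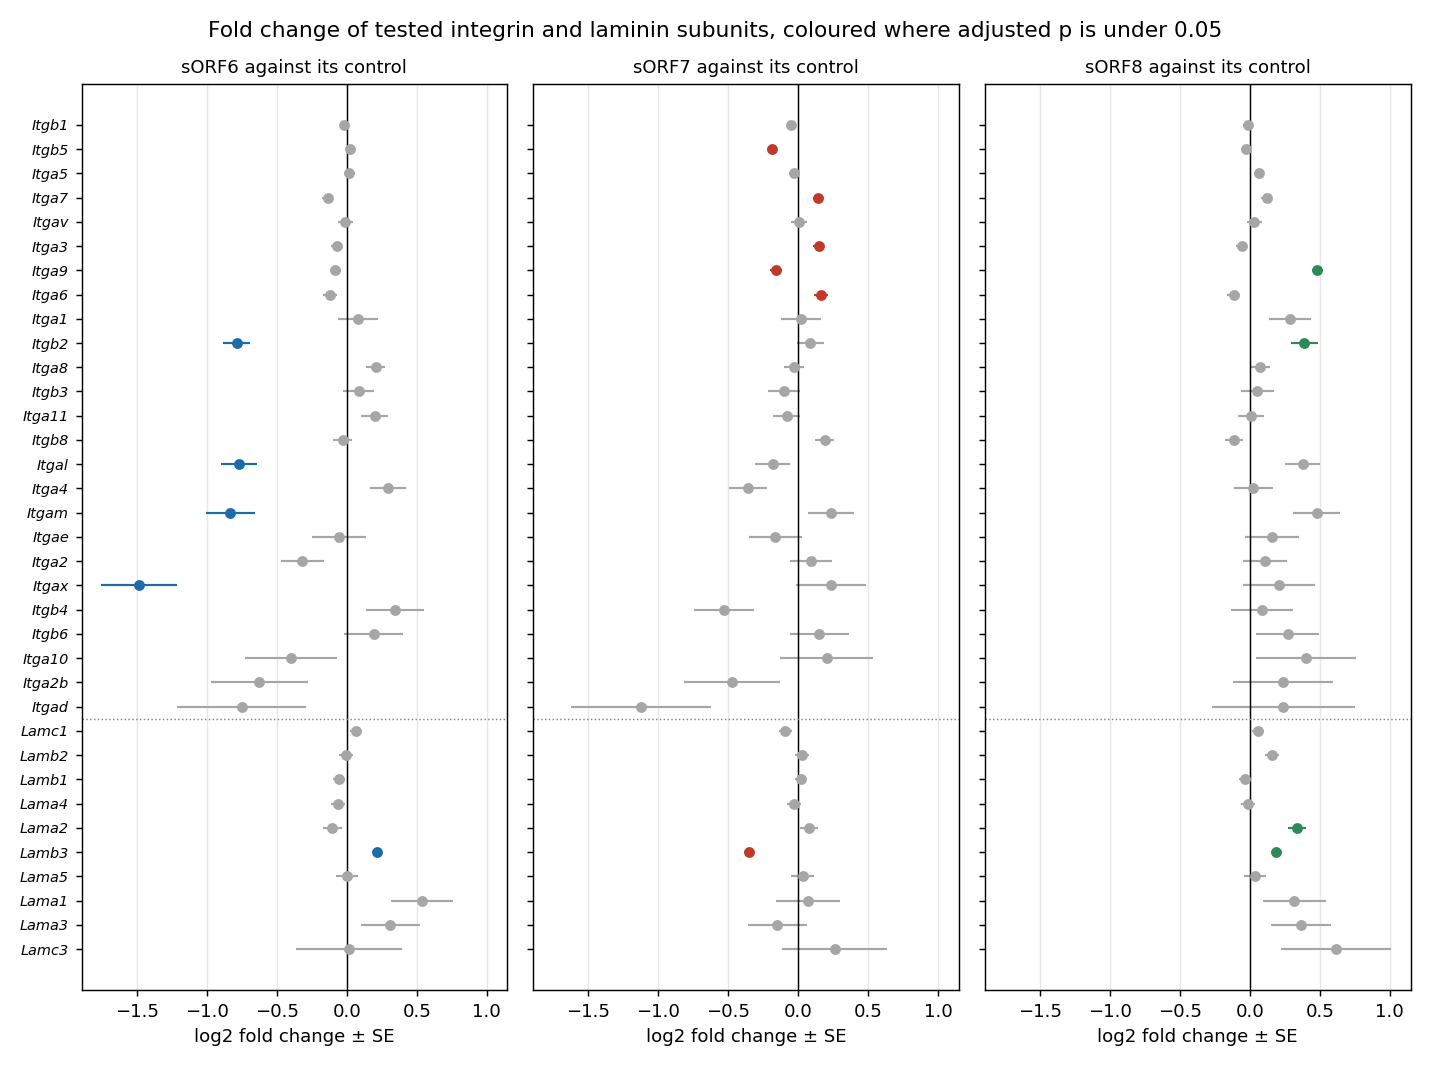
Log2 fold change (point) and standard error (line) of the tested subunits, 1 of the 36 not shown, for each sORF against its control virus, integrins above the dotted line and laminins below it, in order of level. Coloured points passed at an adjusted p under 0.05, 5 in the left panel, 6 in the middle and 4 on the right.

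The comparison of sORF8 with its control gave 4 called subunits of 36, all higher, against 3.76% of all genes (2.03% higher and 1.73% lower). They were Itga9, the muscle laminin chain Lama2, Lamb3 and Itgb2. The median log2 fold change was 0.11 over the subunits and 0.00044 over all genes, and 10 subunits lay above and 4 below the controls without overlap, against 24.5% of all genes.

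Itga9 (gene 685004, chromosome 8, 127271022 to 127577233, plus strand) was at 267, 281 and 275 CPM with sORF8 and at 202, 201 and 187 CPM in the controls. The groups lay far apart, and the log2 fold change of 0.48 ± 0.04 (adjusted p = 1.6e-06) was the largest among the called subunits. Itga9 lies within the interval of Ctdspl on the same strand, at a mean of 6.33 FPKM, so reads of the pair could be mixed. Itga4, the chain most like it in ligands, did not pass (0.03 ± 0.14, adjusted p = 0.96).

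Lama2 (gene 309368, chromosome 1, 18491240 to 19143555, plus strand) was at 371, 402 and 364 CPM against 298, 312 and 290 CPM. All sORF8 libraries were higher, with a log2 fold change of 0.34 ± 0.07 (adjusted p = 0.0067). The other chains of the muscle laminin gave 0.16 ± 0.05 for Lamb2 (adjusted p = 0.10) and 0.06 ± 0.04 for Lamc1 (adjusted p = 0.56). Lamb3 was at 120, 126 and 119 CPM against 107, 104 and 109 CPM (0.19 ± 0.04, adjusted p = 0.0083). Itgb2 was at 24.5, 24.2 and 21.3 CPM against 19.2, 17.7 and 16.5 CPM (0.39 ± 0.09, adjusted p = 0.025). The groups did not overlap in any of the 4 genes. The call of Itgb2 was lost without replicate 1 or 2 of sORF8 or 2 or 3 of its control (adjusted p 0.077 to 0.125).

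Among the alpha partners of Itgb2, Itgal was at 19.6, 19.2 and 17.3 CPM against 13.2, 16.1 and 13.9 CPM (0.38 ± 0.12, adjusted p = 0.11), and Itgam gave 0.48 ± 0.17 (adjusted p = 0.14). The libraries of both lay above their controls, but neither gene passed. The summed leukocyte markers were 106 to 140 CPM with sORF8 and 109 to 113 CPM in the controls, with 0 of 7 called. Of the 8 cardiomyocyte markers, 4 rose with sORF8, and their summed level was 38521 to 39640 CPM against 32030 to 32159 CPM, so Lama2 and Itga9 rose in libraries that held more cardiomyocyte mRNA. The part of that shift in their rise was not tested. Endothelial markers (62.9 to 67.7 against 57.9 to 61.6 CPM, 0 called) also lay above their controls. So did smooth muscle and pericyte markers (5036 to 5326 against 4758 to 5002 CPM, Acta2 called higher). The part of these 2 shifts in the 4 calls was not tested either. Leaving out replicate 2 of sORF8 left 1 call, Itga9, and leaving out replicate 2 of its control left 2, Itga9 and Lama2. A fit of the 6 libraries alone called 7 subunits, and the fit without the 2 controls of the other experiments that stood apart called 8. Calls over all genes, 559 in the main fit, were 264, 331, 865 and 988 in the same order.

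**Figure D4:**
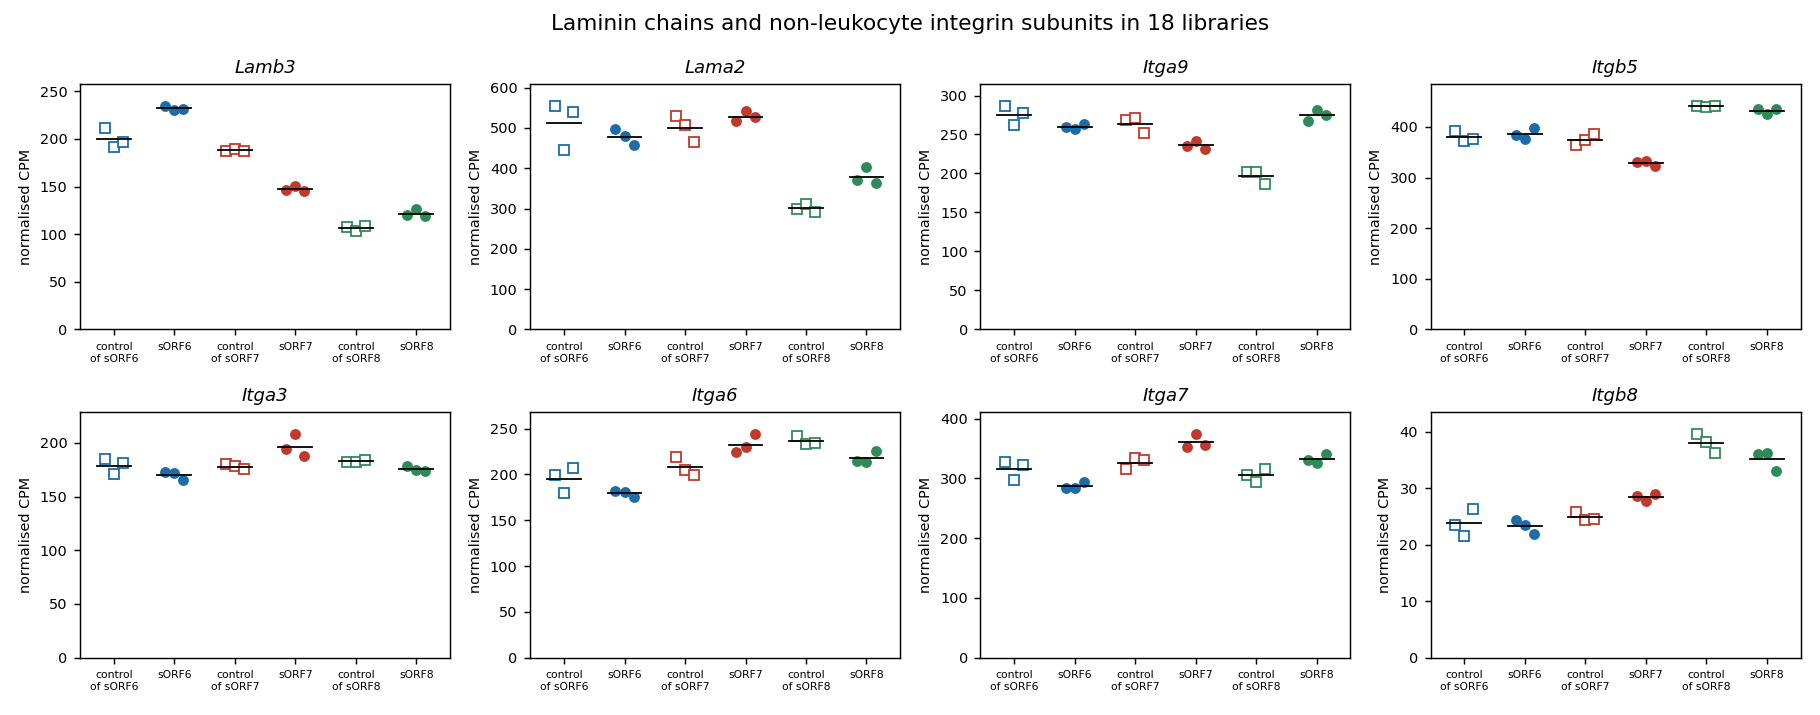
Normalised CPM of 2 laminin chains and 6 integrin chains in each of 18 libraries, with controls as open squares, sORF groups as filled circles and group means as black lines. Lamb3 is at 230 to 235 CPM with sORF6, 146 to 150 with sORF7 and 119 to 126 with sORF8, and the 3 controls of sORF8, at 104 to 109, lie below the other 6 controls.

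The responses were then compared with each other, each as the difference between a virus group and its own control. The sORF6 and sORF7 responses differed in 10 of 36 subunits, against 11.2% of all genes (4.88% more positive for sORF6 and 6.29% more negative). Lamb3 moved in opposite directions, and the difference (sORF6 minus sORF7) was a log2 of 0.57 ± 0.05 (edgeR adjusted p = 4.9e-07). The leukocyte chains differed by -0.87 ± 0.14 for Itgb2, -1.07 ± 0.24 for Itgam, -1.72 ± 0.37 for Itgax and -0.59 ± 0.18 for Itgal (adjusted p from 0.00025 to 0.039). The laminin-binding chains differed by -0.28 ± 0.06 for Itga7, -0.28 ± 0.07 for Itga6 and -0.22 ± 0.05 for Itga3 (adjusted p from 0.0026 to 0.014). Itgb5 differed by 0.21 ± 0.05 (adjusted p = 0.0040). Itga4, the receptor chain for VCAM-1, passed in neither comparison but differed between them by 0.66 ± 0.19 (adjusted p = 0.028). Without the 2 controls that stood apart, 12 of 37 then tested differed, against 1583 of 15046 genes. Itga4 was no longer among the 12 (adjusted p = 0.113). In the main fit that gene gave the following values. It was at 12.8, 10.1 and 10.3 CPM with sORF6 (controls 9.37, 7.47 and 10.2) and at 6.95, 8.04 and 7.48 CPM with sORF7 (controls 9.86, 9.56 and 9.40). The sORF6 groups of Itga4 overlap and the sORF7 groups do not, and the difference was lost without sORF6 replicate 1, sORF6 control replicate 2, sORF7 replicate 1 or 3, or sORF7 control replicate 1 (adjusted p 0.052 to 0.089), and with limma (0.0594). That of Itgal was lost without any of 8 of the 12 libraries (adjusted p 0.051 to 0.113), the exceptions being sORF6 replicate 1, sORF7 replicate 3 and replicate 2 of each control.

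The sORF6 and sORF8 responses differed in 7 of 36 subunits, all more negative for sORF6, against 3.68% of all genes (0.867% more positive and 2.82% more negative). They were Itgb2 (-1.18 ± 0.14, adjusted p = 1.9e-05), Itgal, Itgam, Itgax, Itga9 (-0.56 ± 0.06, adjusted p = 5.1e-06), Lama2 and Itga7. Itga7 was at 331, 326 and 340 CPM with sORF8 and at 306, 295 and 316 CPM in its controls, and it differed by -0.26 ± 0.06 (adjusted p = 0.012) although neither comparison alone called it. For Lamb3 the responses to sORF6 and sORF8 had a difference of 0.02 (adjusted p = 0.90). Without the 2 controls that stood apart, 8 of 37 subunits differed, against 698 of 15046 genes. The sORF7 and sORF8 responses differed in 5 of 36, against 7.72% of all genes (3.8% more positive for sORF7 and 3.92% more negative), namely Itga9 (-0.64 ± 0.06, adjusted p = 1.0e-06), Lamb3 (-0.54 ± 0.05, adjusted p = 3.8e-06), Itga6 (0.28 ± 0.07), Itga3 (0.20 ± 0.05) and Itgb5 (-0.16 ± 0.05). The call of Itga3 was lost without any of 8 of the 12 libraries (adjusted p 0.051 to 0.075), all but sORF7 replicates 1 and 3, sORF7 control replicate 1 and sORF8 replicate 1. That of Itgb5 was lost without any of 9 (0.054 to 0.088), all but sORF7 replicate 2, sORF7 control replicate 1 and sORF8 replicate 2. It was also lost with limma (adjusted p = 0.092), with the length correction (0.0504) and with no filter on low counts (0.0549). Without the 2 controls that stood apart, 7 of 37 subunits differed, against 1372 of 15046 genes.

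The 3 control virus groups differed among themselves in 12 of 36 subunits by a joint F test, against 38.4% of all genes. Without the 2 controls that stood apart, 18 of 37 differed, against 6578 of 15046 genes. Lamb3 was at 212, 192 and 196 CPM in the sORF6 controls, 187, 190 and 187 CPM in the sORF7 controls and 107, 104 and 109 CPM in the sORF8 controls, a range of group means of 0.91 on the log2 scale (adjusted p = 3.8e-12). That spread between controls is larger than any response of Lamb3 to an sORF. Itga9 was at 287, 262 and 278, at 268, 271 and 252, and at 202, 201 and 187 CPM in the same order (range 0.49, adjusted p = 3.3e-08). Lama2 was at 554, 444 and 540, at 530, 508 and 465, and at 298, 312 and 290 CPM (range 0.77, adjusted p = 3.5e-08).

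In all 3 genes the sORF8 controls were the low group, and the Itga9 level with sORF8, 267 to 281 CPM, lay within the 252 to 287 CPM of the other 6 controls. Lama2 with sORF8, at 364 to 402 CPM, and Lamb3, at 119 to 126 CPM, stayed below them. Lamb2 (385 against 536 and 545 CPM) and Itga5 (332 against 416 and 404 CPM) were low in the sORF8 controls as well, while Itgb8 (38.0 against 23.7 and 24.9 CPM), Lamb1 (565 against 477 and 475 CPM), Itgb5, Itga6 and Itgb1 were high there. The other 2 of the 12, Itga1 and Itgav, lost their calls without single libraries (adjusted p 0.080 to 0.1004 and 0.073 to 0.148). The sORF8 controls lay apart from the other 6 controls for 11 subunits, 5 above and 6 below, against 36.7% of all genes. All 8 cardiomyocyte markers also differed between the control groups, with a summed 32030 to 32159 CPM in the sORF8 controls and 48803 to 54591 CPM in the others. Experiment and batch cannot be told apart here, since each control group belongs to 1 experiment.

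Genes that work with the subunits were read from lists chosen by function. Of 27 adaptors and focal adhesion proteins, 3 rose and 1 fell with sORF6, 1 rose and 4 fell with sORF7, and 1 rose and 1 fell with sORF8. Of all genes tested, 3.86%, 7.77% and 3.76% were called in the same order. Vcl, which encodes vinculin of focal adhesions and costameres, rose with sORF6 (1143, 1114 and 1116 against 1014, 962 and 1011 CPM, log2 0.18 ± 0.03, adjusted p = 0.0028). It fell with sORF7 (820, 839 and 823 against 997, 939 and 905 CPM, log2 -0.20 ± 0.03, adjusted p = 0.00083). Actn1, an actinin of focal adhesions, changed by 0.16 and -0.16 and Tns2, a tensin, by 0.31 and -0.23 in the same comparisons, each passing in both. Itgb1bp2, which encodes melusin, a muscle protein that binds the beta1 tail, fell with sORF7 (log2 -0.26 ± 0.05, adjusted p = 0.0026). Lims2, an adaptor of integrin-linked kinase, rose with sORF7 (0.30) and sORF8 (0.52), while its paralog Lims1 fell with sORF8 (-0.17). The list median was 0.03 with sORF6, -0.05 with sORF7 and 0.02 with sORF8.

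Of 14 basement membrane partners, 3 rose and 0 fell with sORF6, 1 rose and 1 fell with sORF7, and 2 rose and 0 fell with sORF8. The shares of all genes called were 3.86%, 7.77% and 3.76%. Nid1, the nidogen that links laminin to collagen IV, rose with sORF6 (638, 620 and 598 against 534, 509 and 557 CPM, log2 0.21 ± 0.04, adjusted p = 0.0050) and fell with sORF7 (393, 420 and 398 against 506, 505 and 462 CPM, log2 -0.28 ± 0.04, adjusted p = 0.00034). Agrn, a proteoglycan that binds laminin and dystroglycan, rose with sORF7 (97.5, 87.6 and 84.1 against 64.1, 66.3 and 60.2 CPM, log2 0.50 ± 0.09, adjusted p = 0.0011). Sparc, a collagen-binding matrix protein, rose with sORF6 (0.12) and sORF8 (0.10), and the collagen IV chains Col4a5 and Col4a4 rose with sORF6 (0.20) and sORF8 (0.58). Of 12 genes listed for other laminin receptors and their complexes, 1 changed with sORF6 (Sdc1, -0.31), 2 with sORF7 (Sgca, 0.23, and Sgcb, -0.12) and 1 with sORF8 (Sgcb, 0.13). Those counts stand against the same shares of all genes, 3.86%, 7.77% and 3.76%. Sgca and Sgcb encode sarcoglycans, which are not themselves laminin receptors.

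Of 8 tested ligands outside the laminins, 0 rose and 3 fell with sORF6, 2 rose and 2 fell with sORF7, and 1 rose and 0 fell with sORF8. The shares of all genes called were 3.86%, 7.77% and 3.76%. Icam1, the ligand of the integrin of alphaL and beta2, fell with sORF6 (66.3, 67.4 and 69.0 against 88.2, 86.3 and 78.9 CPM, log2 -0.32 ± 0.05, adjusted p = 0.00017) and rose with sORF7 (0.16). Vcam1, the ligand of alpha4 integrins, fell with sORF6 (23.4, 24.5 and 22.1 against 31.6, 32.2 and 29.8 CPM, log2 -0.42 ± 0.06, adjusted p = 0.00024). It fell with sORF7 (-0.21) and rose with sORF8 (0.27). Tnc, which encodes tenascin-C, a ligand of alpha9 integrin, had overlapping sORF6 groups (log2 -0.24, adjusted p = 0.013) and rose with sORF7 (0.20), where Postn fell (-0.16).

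In the authors' deposited table, q-values under 0.05 were given to 19 of the 37 subunits for sORF6 (6 higher, 13 lower), against 21.9% of all genes with a q-value. The authors' deposited table gave 16 for sORF7 (8 higher, 8 lower), against 27.4%, and 17 for sORF8 (11 higher, 6 lower), against 22.7%. The authors labelled these q-values degseq, a test other than the edgeR test used here, so these counts and the edgeR calls are not like for like.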

How the data were processed

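The authors deposited 1 table with estimated counts and FPKM per gene and library, and with their own log2 fold changes and q-values, the latter labelled degseq. Per the submitters' processing notes, the tools include HISAT2 2.0.4, RSEM 1.2.12 and DESeq2 1.4.5, and the build is Rnor_6.0. No source used here states whether reads were counted by strand.

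The authors' estimated counts (27.1% not whole) were rounded and then tested in R 4.3.3 by edgeR 4.0.16 (filterByExpr over the 6 groups, TMM, glmQLFit and glmQLFTest, 1 mean per group, all 18 libraries, 12 residual degrees of freedom, common biological coefficient of variation 6.9%). P-values are two-sided, adjusted by Benjamini-Hochberg over 14872 genes, with 0.05 as the threshold. The deposited FPKM values served for levels and for limma 3.58.1 on log2(FPKM + 1), and DESeq2 1.42.0 was an alternative. The authors' deposited q-values and log2 fold changes are quoted only where the authors' table is named. Tests were checked on simulated counts.

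Samples were grouped by title. Values in every library are given for subunits called in a virus comparison or a difference between responses, and for the 3 with the smallest p between controls; listed partner genes are named if called, up to 4 per list and comparison. The subunits, lists and tests were chosen with earlier results of these data known. The values of 1 subunit, which entered the fits and counts, are not reported here.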

Additional observations from a re-analysis of the deposited data

Results flagged for a closer look

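The responses to the 3 sORFs were flagged where the edgeR test of the difference itself passed. Given as log2 differences of the first response minus the second, sORF6 and sORF7 differed in Lamb3 (0.57), Itgb2 (-0.87), Itga7 (-0.28), Itgb5 (0.21), Itgax (-1.72), Itgam (-1.07), Itga6 (-0.28), Itga3 (-0.22), Itga4 (0.66) and Itgal (-0.59). Of these, the call of Itga4 was lost without replicate 1 of sORF6 (adjusted p = 0.0887) and that of Itgal without replicate 1 of the sORF6 control (adjusted p = 0.113), among other libraries.

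The sORF6 and sORF8 responses differed in Itga9 (-0.56), Itgb2 (-1.18), Itgal (-1.15), Itgam (-1.31), Lama2 (-0.44), Itgax (-1.69) and Itga7 (-0.26). All 7 kept their calls in every setting tried. The 4 leukocyte chains Itgb2, Itgal, Itgam and Itgax thus differed between sORF6 and each of the other responses.

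The sORF7 and sORF8 responses differed in Itga9 (-0.64), Lamb3 (-0.54), Itga6 (0.28), Itga3 (0.20) and Itgb5 (-0.16). Of these, the calls of Itga3 and Itgb5 were lost without replicate 3 of sORF8 (adjusted p = 0.0633 and 0.0762), among other libraries. That of Itgb5 was also lost with limma, with the length correction, with the replicate block and with no filter on low counts. Groups of 3 libraries are too small for a test of single libraries that stand apart.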

How the results depend on the processing

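Direction held under every alternative for every subunit called in a virus comparison or a difference between responses. Of 869 single values, with the control comparison included, 787 kept their call, 82 lost it and 0 reversed. The values of the control comparison are ranges of group means without a sign, so they could not reverse. For sORF6 (5 called), 10 were called with the length correction, 9 without the 2 controls that stood apart, and 5 to 9 when single libraries were left out. For sORF7 (6 called), 2 were called in a fit of its 6 libraries and 2 to 4 without single libraries. For sORF8 (4 called), 8 were called without the 2 controls that stood apart, 7 in a fit of its 6 libraries and 1 to 4 without single libraries. The other ranges without 1 library were 8 to 11 (sORF6 minus sORF7, 10 called), 7 to 8 (sORF6 minus sORF8, 7 called), 3 to 6 (sORF7 minus sORF8, 5 called) and 11 to 15 (controls, 12 called, and 18 without the 2 controls that stood apart). The cause was not tested.

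The labels do not state whether replicate numbers pair the samples, and the correlations do not settle it. Deviations of same-numbered libraries correlated at 0.178, 0.0544 and 0.025 (sORF6), 0.0836, 0.0501 and 0.00413 (sORF7) and -0.0226, 0.107 and 0.0312 (sORF8) over 12511 genes. Those of differently numbered libraries correlated at -0.135 to 0.0835 (sORF6), -0.148 to 0.0912 (sORF7) and -0.1 to 0.0692 (sORF8). Not every library correlated best with its own number. With the replicate block, 6, 5 and 4 subunits were called for sORF6, sORF7 and sORF8, 10, 7 and 5 for the differences in the order above, and 10 for the controls. Over all genes, the block fit called 523, 1021 and 458 of 14872 for the 3 sORFs. It called 1526, 495 and 1062 of 14872 for the differences and 4467 of 14487 for the controls. The block ended the calls of Itga6 for sORF7 (adjusted p = 0.091) and of Itgb5 for sORF7 minus sORF8 (0.0672, and 0.0953 with the length correction). It also ended those of Itgb1 and Itgav for the controls (0.0564 and 0.0956). With the block and the length correction together, 10, 8 and 7 were called for the 3 sORFs. Over all genes, 648, 1285 and 828 of 14872 were called in that fit.

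Over all genes, the 574 calls of sORF6 became 683 with the length correction and 616 without the 2 controls that stood apart. They became 335 in a fit of its 6 libraries and 368 or 372 without replicate 1 or 3 of sORF6. The 1156 of sORF7 became 689, and 682 without replicate 1. The 559 of sORF8 became 928 with the length correction, 988 without the 2 controls and 865 in its 6 libraries, and 264 to 382 without single libraries. Limma called 740 higher and 324 lower genes for sORF7, against 612 and 544 with edgeR, and 457 and 1129 for sORF6 minus sORF7 (edgeR 726 and 935) and 792 and 376 for sORF7 minus sORF8 (edgeR 565 and 583).

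Counts limit what the low subunits can show: Itgax had 16 to 74 counts per library, Itgad 3 to 20 and Lamc3 8 to 26, and their standard errors were 0.25 or more on the log2 scale.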

Other observations

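Itgb1 made up a mean of 83.7% of the summed FPKM of the integrin beta chains. That sum was 818 ± 4.34 in the sORF8 controls and 803 ± 5.28 with sORF8 (SD, n = 3 each). In the sORF6 and sORF7 controls it was 722 ± 5.39 and 712 ± 39.7. For the summed beta laminin chains the sORF8 controls were instead the lowest control group, at 186 ± 2.15. The sORF6 and sORF7 controls were at 217 ± 15.9 and 215 ± 4.74. The ratio of Itga7 to Itga6 FPKM was 1.90 to 2.52 over the 18 libraries. In the files' annotation (Rnor_6.0), 15 of the 37 subunits overlap another gene.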
